A study of Oryza sativa with 12 samples.

Results

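Alpha-expansins are a family of plant cell wall proteins, and the set described here is the 10 rice genes named EXPA1 to EXPA10. Membership was set by name and identifier, with no measured value in the rule. Of the 10 identifiers, 9 were found among the 32552 identifiers of the deposited tables. Os01g0249100, the identifier given for EXPA9, was not analysed here.

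Expansins loosen the primary wall without cutting its polymers: at acid pH they weaken the contacts between cellulose and the other wall polysaccharides, so that turgor can stretch the cell. Auxin acidifies the wall by activating proton pumps of the plasma membrane, and it also raises the transcription of expansin genes in many growing organs. In leaf primordia, the young leaves that form around the shoot apex, local wall loosening accompanies outgrowth and the later expansion of the blade.

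RNA was sequenced from leaf primordia of rice (Oryza sativa) in 12 libraries, 3 per group. The groups were ospin1c ospin1d, labelled as a knockout of both OsPIN1c and OsPIN1d, ospid C1 and ospid C2, both labelled as OsPID knockouts, and WT, the cultivar Nipponbare. OsPIN1c and OsPIN1d belong to the PIN carriers, which carry auxin out of the cell, and OsPID is a relative of the PINOID kinase, known to phosphorylate PIN carriers. Plants of every group were kept on days of 15 h and nights of 9 h, at 28 °C by day and 24 °C by night. The labels give neither plant age nor the type of mutation, name a single line of ospin1c ospin1d, and do not say whether replicates were separate plants. The p-values therefore reflect only how far these libraries spread, and that spread may be technical.

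The libraries held 15211547 to 16422849 reads, a depth recovered from the smallest steps in FPKM (fragments per kilobase of gene, scaled to library depth). Within a group, log2(FPKM + 1) correlated across genes at 0.960 to 0.980. Factors for median-ratio scaling lay between 0.909 (ospid C2 replicate 1) and 1.16 (ospid C1 replicate 1), and in ospid C1 against WT the scaling moved the median gene to a log2 change of -0.00054, against 0.15 as deposited. Neither the targeted genes nor markers of leaf primordia were looked up, because the tables hold identifiers with no names and the reference table does not link names to them. In bulk tissue, fewer cells of a type and less RNA per cell cannot be told apart.

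In every group EXPA6 (Os03g0336400) had the highest mean level of the 9 genes. In the libraries of WT it stood at 154, 113 and 124 FPKM, above 94.8% of the tested genes when ranked by WT mean. The next genes in WT were EXPA1 (Os04g0228400) at 20.9 ± 11.6 FPKM and EXPA10 (Os04g0583500) at 20.7 ± 1.51 FPKM (SD, n = 3 each), whose ranges overlapped. EXPA5 (Os02g0744200) followed at 13.5 ± 3.57 FPKM and EXPA7 (Os03g0822000) at 13.4 ± 2.97 FPKM in WT, and these also overlapped each other. EXPA2 (Os01g0823100) at 5.03 ± 4.01 FPKM and EXPA4 (Os05g0477600) at 4.34 ± 0.558 FPKM in WT formed another overlapping pair. EXPA8 (Os01g0248900) and EXPA3 (Os05g0276500) were at or near 0.

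The order of the means changed mostly through EXPA1 and EXPA2. In the libraries of ospid C1 EXPA2 ranked 3 and EXPA1 ranked 6, while EXPA2 ranked 3 in ospid C2, 6 in ospin1c ospin1d and 6 in WT. These ranks were not separated in the ospid lines. Ranges of neighbours overlapped from EXPA10 (rank 2) to EXPA4 (rank 7) in ospid C1, and from EXPA6 (rank 1) to EXPA10 (rank 4) in ospid C2. EXPA1 stood at 13.8, 13.1 and 2.78 FPKM in ospid C1, so its rank there leaned on replicate 3. EXPA6 did not overlap the gene ranked next in ospin1c ospin1d, ospid C1 or WT. In ospid C2 it did: EXPA6 spanned 40.5 to 58.8 FPKM there and EXPA1 13.8 to 47.5 FPKM.

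**Figure D1:**
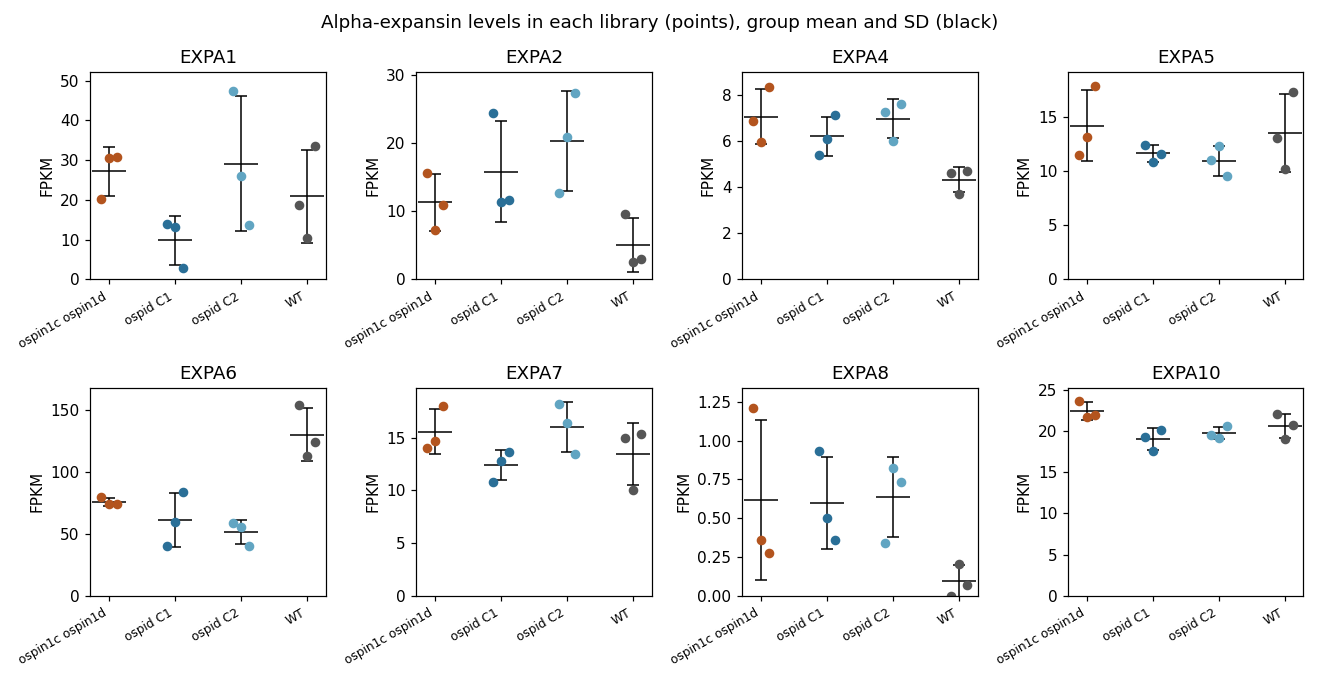
FPKM of 8 alpha-expansins (vertical axes, starting at 0) in each library of the 4 groups, as points, with the group mean and SD in black. As deposited, EXPA6 is lower in all 9 mutant libraries than in the 3 WT libraries, and EXPA4 and EXPA8 are higher in all 9. With median-ratio scaling, not plotted, EXPA4 of ospid C1 replicate 1 falls within the WT range. EXPA10 stays between 17.6 and 23.8 FPKM as deposited.

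EXPA6 was lower in each mutant library than in WT. In ospin1c ospin1d it stood at 79.8, 74.0 and 73.8 FPKM, in ospid C1 at 40.5, 59.9 and 83.8 FPKM, and in ospid C2 at 58.8, 55.4 and 40.5 FPKM, against 154, 113 and 124 FPKM in WT. The highest mutant library lay below the lowest WT library. Differences between groups were tested with limma on log2(FPKM + 1), with Benjamini-Hochberg adjustment over all 21250 genes and a threshold of 0.05. EXPA6 fell by 1.12 on the log2 scale in ospid C1 (SE 0.227, adjusted p = 0.0114) and by 1.33 in ospid C2 (SE 0.227, adjusted p = 0.0045). The mean level was 47.1% of WT in ospid C1 and 39.5% in ospid C2.

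The lower EXPA6 level of ospin1c ospin1d, 58.1% of WT, did not pass the threshold (log2 change -0.76, SE 0.227, adjusted p = 0.115 by limma). Its 95% interval ran from -1.26 to -0.27, and the unadjusted p was 0.00603. With only these 2 groups in the fit limma gave an adjusted p of 0.0222, and without ospid C1 replicate 1 it gave 0.0485. The fall passed in only these 2 of 19 alternative fits, and the adjusted p reached 0.292 without ospin1c ospin1d replicate 3. The SD of EXPA6 was 3.40 FPKM in ospin1c ospin1d, 21.7 FPKM in ospid C1 and 9.76 FPKM in ospid C2, against 21.5 FPKM in WT.

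Whether the mutants differed from each other in EXPA6 was tested directly. The mean of both ospid lines stood at 56.5 ± 16.0 FPKM (SD, n = 6) and ospin1c ospin1d at 75.8 ± 3.40 FPKM (SD, n = 3). The log2 difference was -0.46 (95% interval -0.89 to -0.03, adjusted p = 0.117 by limma), which did not pass the threshold. Without ospid C1 replicate 3, the ospid library highest in EXPA6, it was -0.59 with an adjusted p of 0.0363. It passed in only this 1 of 19 alternative fits, and the adjusted p reached 0.254 among them. Between ospid C2 and ospid C1 the log2 difference was -0.20 (95% interval -0.70 to 0.29, adjusted p = 0.76). That interval holds differences of either sign.

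EXPA2, one of the expansins first cloned from deepwater rice, had a higher mean in each mutant than in WT. Its values were 15.6, 7.32 and 10.96 FPKM in ospin1c ospin1d, 24.5, 11.4 and 11.7 FPKM in ospid C1, and 12.7, 21.0 and 27.4 FPKM in ospid C2, against 9.66, 2.51 and 2.92 FPKM in WT. Both ospid lines lay above WT without overlap, while ospin1c ospin1d replicate 2 lay below WT replicate 1. In ospid C1 EXPA2 rose by 1.59 on the log2 scale (SE 0.449, adjusted p = 0.0378 by limma), 3.15 times the WT mean. In ospid C2 it rose by 1.95 (SE 0.449, adjusted p = 0.0193), 4.05 times the WT mean. In ospin1c ospin1d the log2 change was 1.16 (95% interval 0.18 to 2.15, adjusted p = 0.221), which did not pass.

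The EXPA2 calls were lost when single libraries were left out. For ospid C1 the adjusted p passed 0.05 upward without WT replicate 2 (0.109), WT replicate 3 (0.102), ospid C1 replicate 1 (0.148), ospid C1 replicate 3 (0.058), ospin1c ospin1d replicate 3 (0.0515) or ospid C2 replicate 2 (0.0547). For ospid C2 it did so without WT replicate 2 (0.0717), WT replicate 3 (0.0689), ospid C2 replicate 2 (0.0633) or ospid C2 replicate 3 (0.082). In ospid C1 the call was also lost with no filter on low values (0.0708) and with only the 2 groups in the fit (0.0603). The direction stayed upward in each of these fits.

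EXPA4, which is induced in elongating deepwater rice internodes and whose suppression shortens rice plants, was higher in all mutant libraries than in WT. It stood at 6.87, 5.96 and 8.35 FPKM in ospin1c ospin1d, 5.42, 6.07 and 7.13 FPKM in ospid C1, and 7.26, 6.01 and 7.63 FPKM in ospid C2, against 4.60, 3.69 and 4.71 FPKM in WT. As deposited, no mutant library overlapped the WT range. Median-ratio factors were 1.16 for ospid C1 replicate 1 and 0.962, 0.929 and 0.978 for the WT replicates. Divided by these factors, ospid C1 replicate 1 fell within the WT range. The rise passed in ospid C2, at 1.61 times the WT mean (log2 change 0.58, SE 0.151, adjusted p = 0.0344 by limma). It did not pass in ospin1c ospin1d (log2 change 0.59, 95% interval 0.26 to 0.92, adjusted p = 0.0724) or in ospid C1 (0.43, 0.10 to 0.76, adjusted p = 0.0701). The ospid C1 change shrank to 0.28 (adjusted p = 0.228 by limma) with median-ratio scaling and to 0.22 (adjusted p = 0.358) with quantile normalization.

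The EXPA4 call in ospid C2 lay close to the threshold. Its adjusted p was 0.0507 with median-ratio scaling, 0.0615 with quantile normalization, 0.0584 with no filter on low values and 0.0746 with only the 2 groups in the fit. Leaving out WT replicate 1 (0.0666), WT replicate 2 (0.113), WT replicate 3 (0.0602), ospin1c ospin1d replicate 1 (0.0506), ospid C2 replicate 1 (0.0534) or ospid C2 replicate 3 (0.125) also ended the call.

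**Figure D2:**
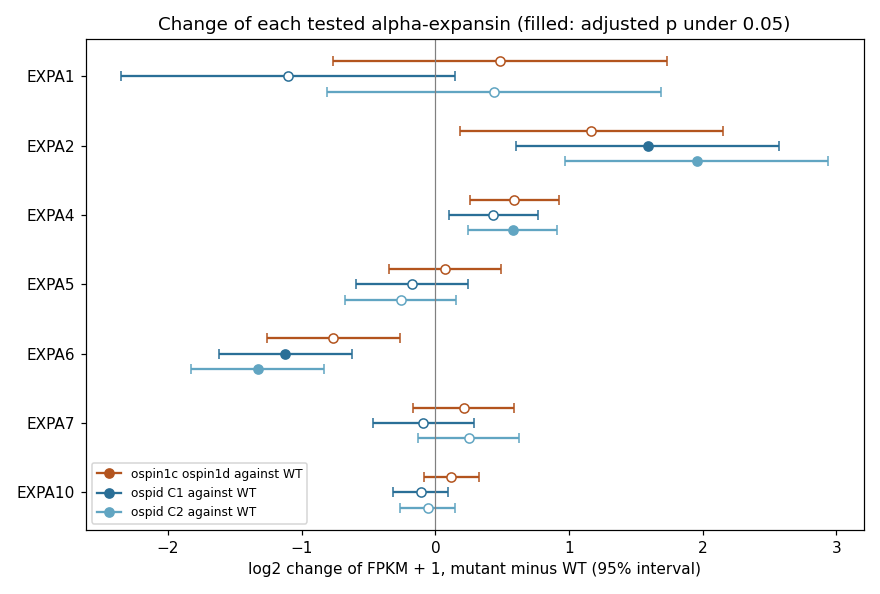
Log2 change of FPKM + 1 in each mutant minus WT (horizontal axis) for the 7 tested alpha-expansins, with 95% intervals from limma and filled points where the adjusted p is under 0.05. EXPA6 lies below 0 and EXPA2 and EXPA4 above 0 in all 3 mutants, and the widest intervals belong to EXPA1 and EXPA2.

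EXPA1, another of the expansins first cloned from deepwater rice, had the largest SD of log2(FPKM + 1) within groups among the 7 tested members. It stood at 20.1, 30.5 and 30.8 FPKM in ospin1c ospin1d, 13.8, 13.1 and 2.78 FPKM in ospid C1, and 47.5, 26.1 and 13.8 FPKM in ospid C2, against 18.7, 10.5 and 33.4 FPKM in WT. Each mutant overlapped WT. The value of 2.78 FPKM in ospid C1 replicate 3 came from 49 reads, with an exact Poisson 95% interval of 2.05 to 3.67 FPKM that covers counting error only. None of the changes against WT passed by limma, at 0.48 (adjusted p = 0.747) for ospin1c ospin1d, -1.10 (adjusted p = 0.184) for ospid C1 and 0.44 (adjusted p = 0.65) for ospid C2, all on the log2 scale. These values moved widely with 1 library left out: they ranged from 0.086 (without WT replicate 2) to 0.88 (without WT replicate 3) in ospin1c ospin1d. In ospid C2 they ranged from 0.013 (without ospid C2 replicate 1) to 0.87 (without ospid C2 replicate 3), with 0.044 without WT replicate 2 and 0.84 without WT replicate 3. In ospid C1 they ranged from -1.50 (without WT replicate 2) to -0.46 (without ospid C1 replicate 3), with -0.70 without WT replicate 3. None of these values passed.

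The ospid lines stood further apart in EXPA1 than in any other tested member, although they carry the same genotype label. The log2 difference of ospid C2 from ospid C1 was 1.54 (95% interval 0.29 to 2.79, unadjusted p = 0.0199), with an adjusted p of 0.382 by limma, which did not pass. Without ospid C1 replicate 3 this difference was 0.90, with an adjusted p of 0.612.

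The spread was compared with that of other genes. The SD of log2(FPKM + 1) within groups was 0.83 for EXPA1 and 0.64 for EXPA2, against a median of 0.21 over the tested genes. This was larger than for 99.0% of 5729 genes with a mean within 2 times that of EXPA1, and larger than for 96.99% of 6751 such genes for EXPA2. EXPA6, at 0.32, exceeded 90.7% of 2549 genes of like mean. EXPA10, at 0.081, exceeded only 2.27% of 5868.

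**Figure D3:**
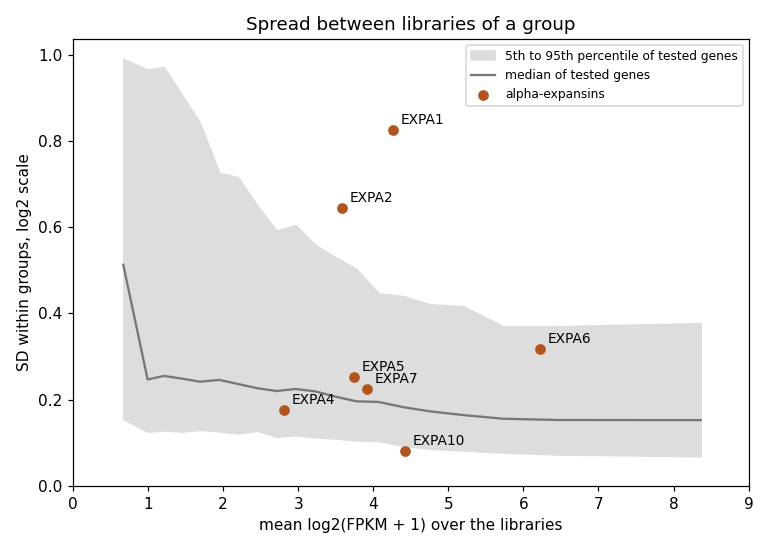
SD within groups of log2(FPKM + 1) (vertical axis) against its mean over the 12 libraries (horizontal axis), with the 7 tested alpha-expansins as points and the tested genes as a grey band from the 5th to the 95th percentile around their median. EXPA1 at 0.83 and EXPA2 at 0.64 lie above the band, and EXPA10 at 0.081 lies just under it.

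Only in WT did the libraries of a group rank alike for EXPA6 and EXPA2. In ospid C1, replicate 1 held the lowest EXPA6 value (40.5 FPKM) and the highest EXPA2 value (24.5 FPKM), but replicate 3, highest in EXPA6 (83.8 FPKM), was not lowest in EXPA2. In ospid C2, replicate 3 held the lowest EXPA6 value (40.5 FPKM) and the highest EXPA2 value (27.4 FPKM), and replicate 1 the highest EXPA6 value (58.8 FPKM) and the lowest EXPA2 value (12.7 FPKM). In ospin1c ospin1d and in WT, in contrast, replicate 1 was highest in both genes, at 79.8 and 15.6 FPKM in ospin1c ospin1d and 154 and 9.66 FPKM in WT. The median-ratio factor was highest in replicate 1 within ospid C1, at 1.16, and in ospid C2 it was 1.08 for replicate 3 and 0.909 for replicate 1. The part of these library differences in the results was not tested; with that scaling EXPA6 and EXPA2 kept their calls in both lines.

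EXPA5 and EXPA7 showed no change that passed. EXPA5 averaged 14.2 ± 3.28 FPKM in ospin1c ospin1d, 11.7 ± 0.797 in ospid C1 and 10.96 ± 1.39 in ospid C2, against 13.5 ± 3.57 in WT (SD, n = 3 each). Its log2 changes were 0.07, -0.17 and -0.26 in the same order of mutants, with limma adjusted p of 0.902, 0.535 and 0.401. EXPA7, whose overexpression raises salt tolerance in rice, averaged 15.6 ± 2.14, 12.4 ± 1.43 and 16.0 ± 2.35 FPKM in the mutants in that order, against 13.4 ± 2.97 FPKM in WT. Its log2 changes were 0.21, -0.09 and 0.25, with limma adjusted p of 0.609, 0.727 and 0.378.

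EXPA10, which aluminium induces in rice roots, was the steadiest tested member. It averaged 22.5 ± 1.10 FPKM in ospin1c ospin1d, 19.1 ± 1.32 FPKM in ospid C1 and 19.8 ± 0.737 FPKM in ospid C2, against 20.7 ± 1.51 FPKM in WT (SD, n = 3 each). The 95% intervals of its log2 change against WT ran from -0.09 to 0.32 in ospin1c ospin1d, from -0.32 to 0.09 in ospid C1 and from -0.26 to 0.15 in ospid C2. As deposited, the ospid C1 change was -0.11 (adjusted p = 0.415 by limma). With median-ratio scaling it was -0.29 (adjusted p = 0.059) and with quantile normalization -0.24 (adjusted p = 0.0835), neither of which passed. All 6 ospid libraries, at 17.6 to 20.7 FPKM, lay below the 3 of ospin1c ospin1d, at 21.7 to 23.8 FPKM. That log2 difference of -0.20 did not pass as deposited (adjusted p = 0.101 by limma). It was -0.32 (adjusted p = 0.0204) with median-ratio scaling and -0.27 (adjusted p = 0.028) with quantile normalization. It passed in only these 2 of 19 alternative fits.

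EXPA8, whose overexpression enlarges the rice root system, and EXPA3 did not pass the filter of 1 FPKM in at least 3 libraries. EXPA8 held 17, 5 and 4 reads (1.21, 0.361 and 0.275 FPKM) in ospin1c ospin1d, 13, 7 and 5 reads (0.931, 0.503 and 0.36 FPKM) in ospid C1 and 5, 12 and 10 reads (0.341, 0.826 and 0.736 FPKM) in ospid C2. WT held 0, 3 and 1 reads (0, 0.206 and 0.0684 FPKM). Every mutant library thus held more reads than any WT library, at counts where 1 read matters. Fitted with no filter, its log2 changes of 0.53, 0.54 and 0.57 in the same order of mutants had limma adjusted p of 0.328, 0.148 and 0.174, none of which passed.

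The names EXPA8 and EXPA9 belong to neighbouring genes with no gene between them in the RefSeq table of the assembly ASM3414082v1. Whether they share reads was not tested. EXPA3 was listed at 0 in 11 libraries and had 1 read, or 0.0597 FPKM, in ospid C2 replicate 3. Its recovered length of 1101 bases is at or close to a lower bound. At that length, a count of 0 allows up to 3 reads, or 0.166 to 0.176 FPKM in those 11 libraries. A lower level there could have been missed.

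Counts over the family were set beside those over all tested genes. In ospin1c ospin1d against WT, limma called 0 of 7 tested members, against 2.31% of all tested genes (1.32% higher, 0.984% lower); 3 members had an unadjusted p under 0.05, as did 16.3% of all tested genes, and voom on the recovered reads also called 0. In ospid C1 against WT it called 1 member higher (10.2% of all genes) and 1 lower (5.30%). In ospid C2 against WT it called 2 higher (4.0%) and 1 lower (6.01%). In each ospid line against WT, 3 members had an unadjusted p under 0.05 by limma. The share of all tested genes with such a p was 35.8% in ospid C1 and 26.5% in ospid C2. Each of the 7 stood above 1 FPKM in all 12 libraries, the lowest value being 2.51 FPKM, so the filter did not depend on the group. With 7 genes, the counts describe these genes alone, and the comparisons with WT share the WT libraries.

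Groups without overlap were counted too, on values as deposited. In ospin1c ospin1d against WT, 1 of the 7 tested members was higher without overlap (12.6% of all tested genes) and 1 lower (12.9%). In ospid C1 against WT these were 2 (28.4%) and 1 (11.4%), and in ospid C2 against WT 2 (15.4%) and 1 (13.8%). EXPA4, counted as higher in ospid C1, overlapped WT there with median-ratio scaling. The median log2 change of the 7 members was 0.21 in ospin1c ospin1d, -0.11 in ospid C1 and 0.25 in ospid C2, against -0.01, 0.15 and 0.06 for all tested genes.

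In the direct comparisons between mutants limma called none of the 7. For ospid C2 against ospid C1 it called 0.00941% of all genes, all of them lower, and 1 member had an unadjusted p under 0.05, as did 10.5% of all tested genes. No member was without overlap there, against 3.43% of all tested genes higher and 11.6% lower. With the ospid lines averaged and set against ospin1c ospin1d it called 19.2% of all genes (12.2% higher, 6.96% lower), and 2 members had an unadjusted p under 0.05, as did 35.5% of all tested genes. Voom called 0 members in both. EXPA10 alone was lower in the ospid lines without overlap, as were 7.76% of all tested genes, and no member was higher without overlap, against 13.7%.

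Summed over the 9 genes, alpha-expansin signal was 174 ± 7.34 FPKM in ospin1c ospin1d, 137 ± 12.4 FPKM in ospid C1 and 155 ± 20.9 FPKM in ospid C2, against 208 ± 35.4 FPKM in WT (SD, n = 3 each). EXPA6 made up 43.6 ± 2.84% of it in ospin1c ospin1d, 44.2 ± 11.9% in ospid C1 and 33.0 ± 2.54% in ospid C2, against 62.8 ± 5.31% in WT. No mutant library, at 30.3 to 55.4%, reached the lowest WT library at 56.8%. EXPA2 made up 6.47 ± 2.37% in ospin1c ospin1d, 11.8 ± 6.36% in ospid C1 and 13.7 ± 6.63% in ospid C2, against 2.30 ± 1.53% in WT.

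The other 8 genes together stood at 98.4 ± 8.61 FPKM in ospin1c ospin1d, 75.7 ± 10.4 FPKM in ospid C1 and 104 ± 11.8 FPKM in ospid C2, against 78.0 ± 19.7 FPKM in WT. Without EXPA6 the mean sum was higher than in WT in ospin1c ospin1d and ospid C2 and lower in ospid C1, but every range overlapped that of WT. The ranges were 93.2 to 108 FPKM in ospin1c ospin1d, 67.4 to 87.3 in ospid C1 and 93.3 to 117 in ospid C2. In WT the range was 56.2 to 94.5 FPKM, and these differences were not tested. Shares of a sum are tied to each other, and a lower EXPA6 raises the share of every other member.

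**Figure D4:**
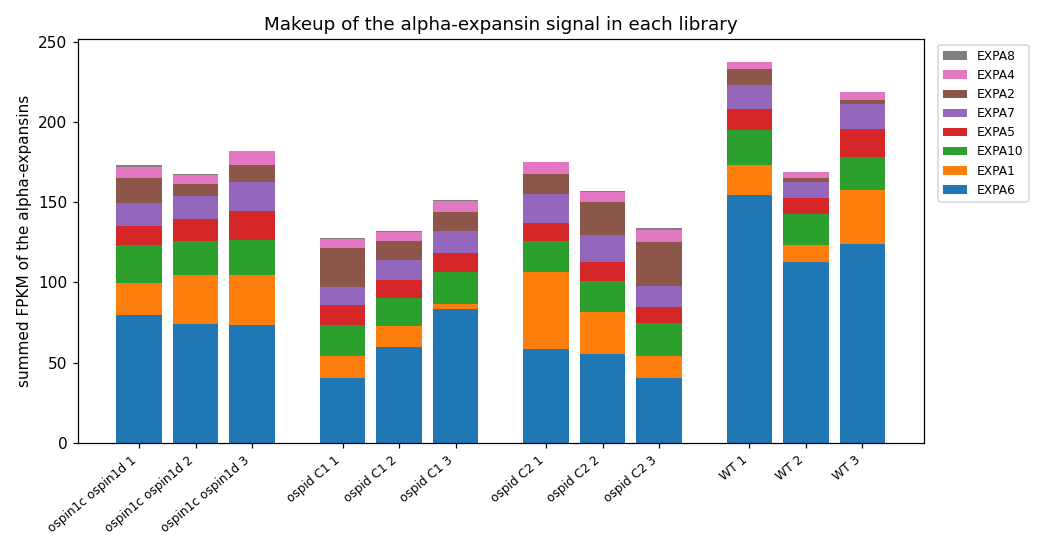
Summed FPKM of the alpha-expansins in each of the 12 libraries (vertical axis, starting at 0), split by gene. EXPA6, the lowest segment, takes 56.8 to 66.7% of the WT bars and 30.3 to 55.4% of the mutant bars.

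For each member called against WT, the tested gene with the most similar course over the 12 libraries was found by Euclidean distance on log2(FPKM + 1), after subtracting each gene's mean. It was Os10g0386300 for EXPA6 (distance 0.606), Os09g0272000 for EXPA2 (1.15) and Os01g0888300 for EXPA4 (0.455). Their mean levels were 16.1, 24.8 and 15.2 FPKM. The files give these identifiers no names, and the likeness is a description over 12 libraries.

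EXPA6 kept its call in both ospid lines under all 19 alternatives run, which included each library left out in turn. Its log2 change ranged from -1.37 to -0.86 in ospid C1 and from -1.43 to -1.17 in ospid C2. EXPA2 kept its call under 11 of 19 alternatives in ospid C1 and 15 of 19 in ospid C2, and EXPA4 under 9 of 19 in ospid C2.

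**Figure D5:**
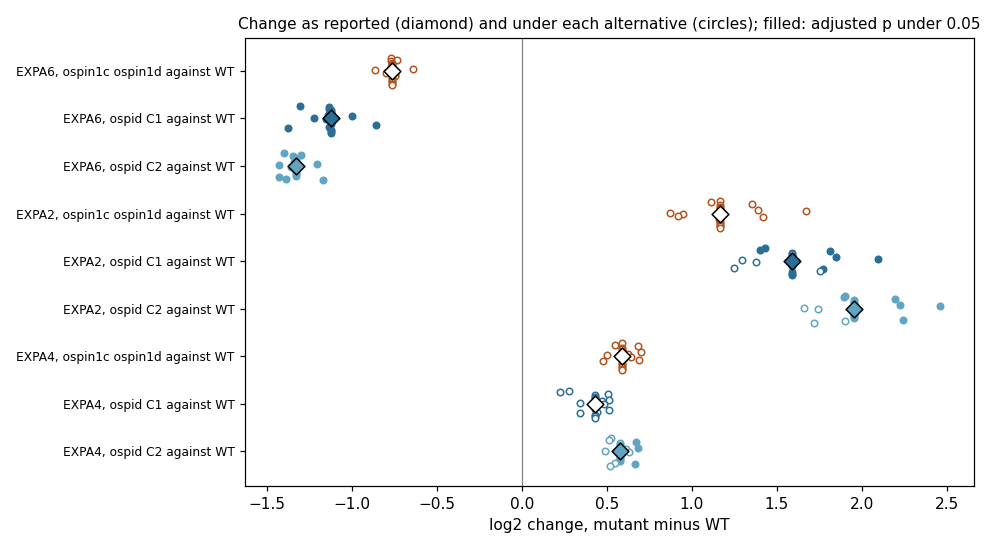
Log2 change of EXPA6, EXPA2 and EXPA4 in each mutant minus WT (horizontal axis), as reported (diamonds) and under each of 19 alternatives (circles), filled where the adjusted p is under 0.05. All EXPA6 symbols are filled in both ospid lines, those of EXPA2 are mixed in both lines, those of EXPA4 are mixed in ospid C2 and open elsewhere, and no direction changes.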

How the data were processed

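Each library's deposited file lists gene identifiers with an FPKM value each, per the file headers. IRGSP-1.0 is the genome build in the submitters' processing notes, which also list HTSeq 0.6.0, Bowtie2 2.2.3 and HISAT2 2.1.0 but not what each did. Libraries were made from 2 µg of total RNA with an NEBNext Ultra kit, per the labels' protocols. Strand use and the handling of shared reads are not given in the sources used here.

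Groups and replicate numbers came from the sample titles. Depths were found as the total at which gene lengths implied by low FPKM values were whole within 0.05 bases. Among lengths near the smallest that gave whole reads in every library, the one closest to whole reads was kept. Such reads summed to 99.96% to 99.98% of the depths. Lengths and reads thus lie at or close to lower bounds. Reads behind a tested member numbered 49 to 2517. Intervals and floors cover counting error only.

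The 21250 genes that reached 1 FPKM in 3 libraries or more were tested on log2(FPKM + 1), in R 4.3.3 with limma 3.58.1 and a variance prior that follows the mean. This scale understates the change of low genes. A single fit of group means took in all 12 libraries, with no covariate. The test was also run on simulated data with independent normal noise, which does not check how uneven libraries affect the calls. Alternatives were median-ratio scaling, quantile normalization, a pseudocount of 0.1, no filter, only the groups compared, the replicate number as a block, voom on recovered reads, and each library left out in turn.

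All members are named. The rule for membership uses no expression value, but the family, like the tests, was chosen with earlier results of these data known. The names EXPA1 to EXPA10 came with the list of members; the RefSeq table of ASM3414082v1 holds all 10 names, on the chromosomes that the identifiers give, but pairs 0 of them with these identifiers. Lists of other expansins, of other wall-loosening genes and of tissue markers, and the targeted genes, were therefore not looked up.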

Additional observations from a re-analysis of the deposited data

How the results depend on the processing

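Of 665 values for single members under alternatives, 629 changed neither sign nor call, 22 lost a call, 5 gained one and 9 changed sign. None of the sign changes belonged to a called value. EXPA5 in ospid C2 against ospid C1, -0.09 as reported, was 0.019 with median-ratio scaling and 0.040 with quantile normalization. Leaving out 1 library gave EXPA5 values of -0.10 to 0.25 in ospin1c ospin1d against WT, -0.35 to 0.0072 in ospid C1 against WT and -0.17 to 0.0023 in ospid C2 against ospid C1. It gave EXPA7 values of -0.28 to 0.0074 in ospid C1 against WT, EXPA6 values of -0.47 to 0.046 in ospid C2 against ospid C1, and EXPA4 values of -0.19 to 0.027 for the averaged ospid lines minus ospin1c ospin1d.

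The number of members called in ospin1c ospin1d against WT (0) was 1 with only the groups compared. In ospid C1 against WT (2) it was 1 with no filter and 1 with only the groups compared. In ospid C2 against WT (3) it was 2 with each of median-ratio scaling, quantile normalization, no filter and only the groups compared. For the averaged ospid lines against ospin1c ospin1d (0) it was 1 with median-ratio scaling and 1 with quantile normalization. Leaving out 1 library gave 0 to 1, 1 to 2, 1 to 3, 0 and 0 to 1 members for ospin1c ospin1d, ospid C1 and ospid C2 (each against WT), then for the ospid lines against each other, then for their average against ospin1c ospin1d. Median-ratio scaling lowered the level in ospid C1 to 10.7 FPKM for EXPA5, against 11.7 as deposited, and to 17.6 FPKM for EXPA10, against 19.1.

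Over all genes, calls in ospin1c ospin1d against WT (490) were 772 with only the groups compared and 325 with the replicate block. Those in ospid C1 against WT (3293; 2166 up, 1127 down) were 2189 with no filter, 2141 with the replicate block, and 1256 up and 1904 down with median-ratio scaling. Those in ospid C2 against WT (2128) were 1318 with only the groups compared. In ospid C2 against ospid C1 (2) they ranged from 0 to 5, and from 0 to 42 with 1 library left out. For the averaged ospid lines against ospin1c ospin1d, 2593 up and 1478 down became 1944 up and 2116 down with median-ratio scaling. With 1 library left out, calls ranged from 185 to 788, 933 to 4716 and 1072 to 3427 for ospin1c ospin1d, ospid C1 and ospid C2 against WT, and from 1448 to 5618 for the averaged ospid lines. The cause was not tested. No pairing by replicate number was seen: in 18 same-numbered pairs, deviations from group means correlated at -0.227 to 0.0694. With the replicate block the calls of members numbered 0, 2, 3, 0 and 0, as without it. Low reads limit EXPA8 and EXPA3.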
